A study of Mus musculus with 6 samples.

Results

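A set of 10 genes used as markers of satellite glial cells or of glial reactivity were followed in dorsal root ganglia (DRGs) of male mice: *Gfap*, *Vim*, *Slc1a3*, *Glul*, *Gja1*, *Fabp7*, *Apoe*, *S100b*, *Sox10*, and *Sox2*. They were chosen by symbol from the 48440 rows of a table of read counts per gene, and all 10 symbols were present. Wild-type mice had received virus by microinjection into the unilateral L3/4 DRGs. In 3 libraries the virus was AAV5-*Gfp*, an adeno-associated virus of serotype AAV5 that expresses green fluorescent protein, and in the other 3 it was AAV5-*V1* mixed with AAV5-*V2* (AAV5-*V1+V2*), viruses for both variants of *NIS-lncRNA*, a long noncoding RNA studied in nerve injury. The injected ganglia were collected at 5 weeks by one statement in the deposited text and at 4 weeks by another, and the ages of the mice are not given in the sources used here. Each group received its own virus preparation, so that the transcripts and the preparation cannot be told apart. The sources used here do not say how many ganglia or animals made up a library, and p-values therefore measure the spread between these libraries, which may be technical.

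Satellite glial cells wrap the cell bodies of sensory neurons. They take up glutamate and convert it to glutamine, buffer potassium, and are joined to each other by gap junctions. After nerve injury they are known for raising GFAP, an intermediate filament, and for stronger coupling. None of the genes is particular to these cells: *S100b* and *Sox10* are also used as Schwann cell markers, *Vim* is expressed by fibroblasts and endothelial cells, and *Apoe* by macrophages.

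The libraries held between 32025612 and 34764282 counts, of which the 10 genes took 0.278% to 0.319%. Levels are given as CPM, counts relative to the library size, with library sizes scaled by edgeR's TMM method. AAV5-*V1+V2* replicate 1 stood apart from the other libraries of its group. Its counts differed from theirs with a chi-square of 32.2 and 48.9 per degree of freedom, against 8.27 to 13.9 for the pairs without it within either group. Values without this library are given beside part of the results. The ganglion label was met by its defining markers, since 15 sensory neuron genes summed to between 7033 and 11781 CPM in every library. The 10 genes of spinal cord glia other than *Gfap* and *Sox10* summed to between 163 and 176 CPM with AAV5-*Gfp* and between 186 and 192 CPM with AAV5-*V1+V2*. Most of this was *Cnp*, which Schwann cells express too, at 128 and 150 CPM in the group means, followed by *Aldh1l1* (17.8 and 16.2 CPM), *Slc1a2* (16.6 and 17.4 CPM), and *Aqp4* (6.45 and 4.62 CPM), while *Olig2* of oligodendrocytes had at most 1 count in any library.

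Per length of the gene, as TPM, the genes spanned a wide range. TPM divides counts by the summed exon length in GENCODE M21, and then by the sum of these length-scaled counts in the library. With AAV5-*Gfp*, *Apoe*, the lipid-carrying apolipoprotein E, was at 1271 ± 71.8 TPM (SD, n = 3). It was followed by *S100b* at 362 ± 12.5 TPM, *Vim* at 172 ± 8.49 TPM, *Glul* at 168 ± 19.7 TPM, and *Fabp7* at 127 ± 8.75 TPM. *Sox10* stood at 20.1 ± 2.36 TPM, *Slc1a3* at 6.91 ± 0.472 TPM, *Gja1* at 4.16 ± 0.388 TPM, and *Gfap* at 1.71 ± 0.0425 TPM, and *Sox2* was listed at 0. In that order only the neighbours *Vim* and *Glul* overlapped between libraries of the AAV5-*Gfp* group. With AAV5-*V1+V2* the order of the means was the same, and overlaps were seen between *Vim* and *Glul*, between *Glul* and *Fabp7*, and between *Gja1* and *Gfap*.

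Between the groups, *Gfap* and *Slc1a3*, a glutamate transporter of glia, were higher with AAV5-*V1+V2*. Both passed an adjusted p of 0.05 by the quasi-likelihood test of edgeR, adjusted after Benjamini and Hochberg over all 18593 genes tested. Of the 10 genes, 9 passed the filter on low counts, 2 of these were higher, and 0 were lower. Over all genes tested, 10.1% were higher and 5.27% were lower by the same rule. At an unadjusted p under 0.05, 3 of the 9 were higher and 1 was lower, where 19.2% and 15.5% of all genes tested were. The median log2 fold change of the 9 genes was 0.00095, against -0.00031 over all genes tested. The groups did not overlap for 4 of the 9 genes, *Gfap*, *Slc1a3*, and *Vim* above and *S100b* below, where 45.4% of all genes tested did not overlap in either direction (23.4% above and 22% below). An exact two-sided permutation test of log2 CPM gave p = 0.1 for each of these 4, the smallest that 3 libraries against 3 allow. In bulk RNA, fewer cells of a type and less RNA per cell cannot be told apart.

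**Figure D1:**
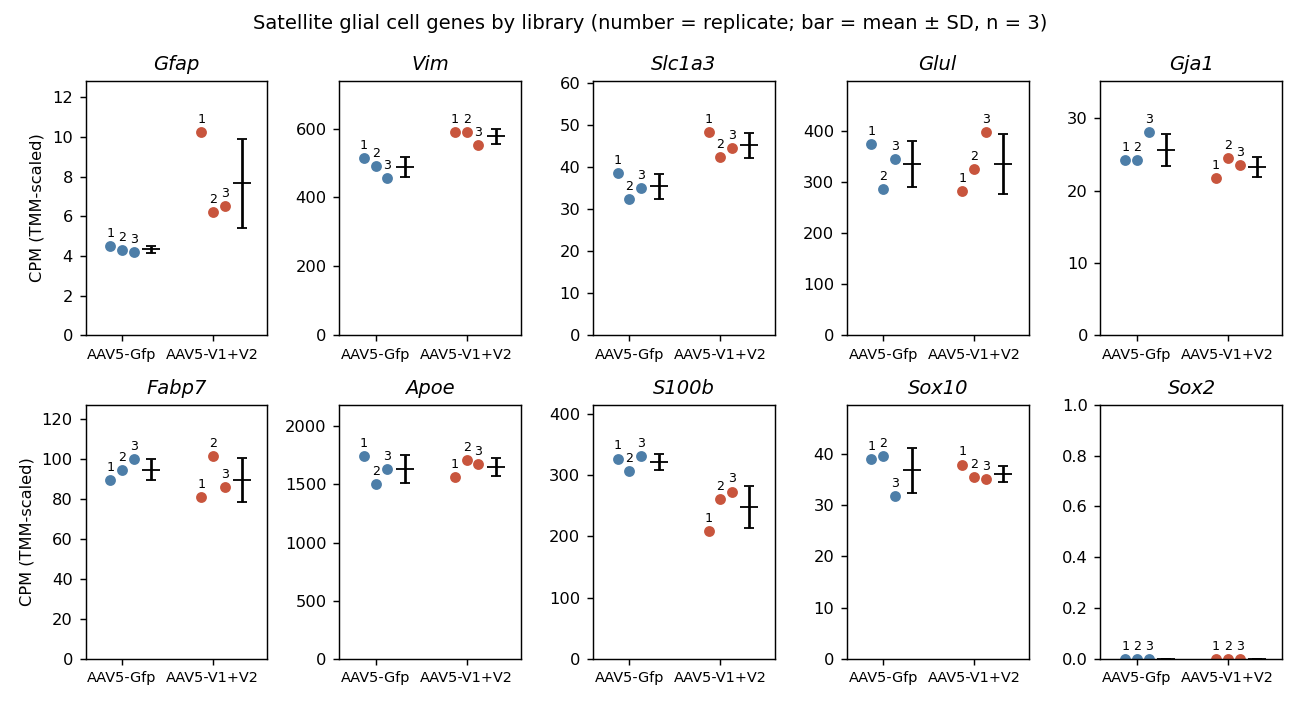
CPM (TMM-scaled, linear axes starting at 0) of the 10 genes in the AAV5-*Gfp* (blue) and AAV5-*V1+V2* (red) libraries, with replicate numbers at the points and bars for the mean ± SD of 3 libraries. The groups are apart for *Gfap*, *Vim*, *Slc1a3*, and *S100b*, they overlap for *Glul*, *Gja1*, *Fabp7*, *Apoe*, and *Sox10*, and *Sox2* is at 0 throughout.

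**Figure D2:**
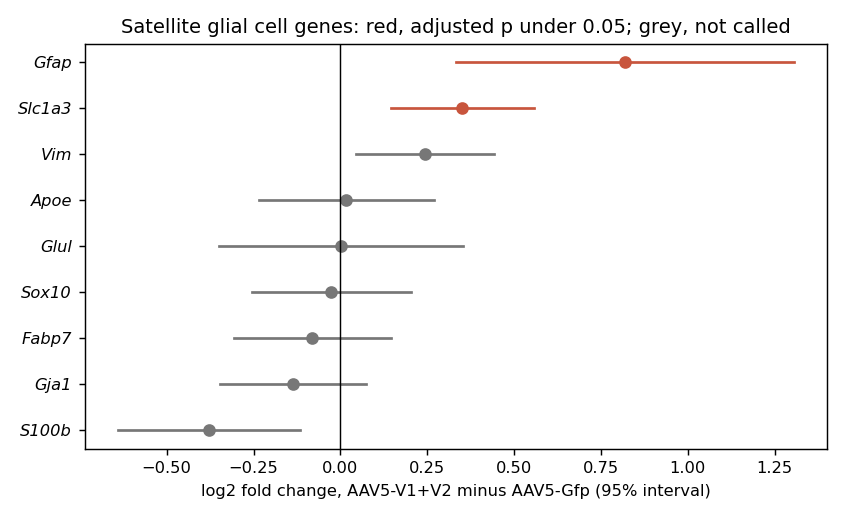
Log2 fold change of AAV5-*V1+V2* over AAV5-*Gfp* for the 9 genes tested, with 95% intervals from edgeR's fit of 3 against 3 libraries. *Gfap* and *Slc1a3* (red) had an adjusted p under 0.05, whereas the intervals of *Vim* and *S100b* exclude 0 without passing the adjusted threshold (grey).

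Among the filament genes, *Gfap* was higher with AAV5-*V1+V2*, and *Vim* lay above the controls without passing the threshold. *Gfap* (ENSMUSG00000020932.14, chromosome 11 of GRCm38, 102887336 to 102900912, minus strand) encodes the glial fibrillary acidic protein. Reads on *Gfap* numbered 146, 149, and 131 in replicates 1, 2, and 3 with AAV5-*Gfp*, which is 4.52, 4.30, and 4.19 CPM. With AAV5-*V1+V2* the replicates had 338, 207, and 223 reads, or 10.3, 6.21, and 6.5 CPM. The control libraries lay close together, and all AAV5-*V1+V2* libraries lay above them, with replicate 1 far above the others of its group. The mean went from 4.34 ± 0.166 to 7.66 ± 2.26 CPM (SD, n = 3), a log2 fold change of 0.82 with a standard error (SE) of 0.21 (1.76-fold, 95% interval of the log2 fold change 0.33 to 1.31, adjusted p = 0.0406 by edgeR's test). Without AAV5-*V1+V2* replicate 1 the log2 fold change was 0.56, and the adjusted p was 0.0236 by the same test. The call was lost without any 1 of AAV5-*Gfp* replicates 1, 2, and 3 (adjusted p = 0.101, 0.125, and 0.139 by edgeR's test) and without AAV5-*V1+V2* replicate 2 (0.0537). In these 4 fits the log2 fold change was 0.85, 0.81, 0.79, and 0.96. Over all genes, the number called higher fell in them from 1872 to 257, 12, 15, and 1020. The call of *Gfap* was also lost in limma-voom (adjusted p = 0.0561). *Gfap* lies within the span of the lincRNA gene Gm26668 of the opposite strand, without a shared exon.

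The promoter windows of the 2 genes that were higher, *Gfap* and *Slc1a3*, are shown because STAT and AP-1 factors are known regulators of glial genes. Each window holds the 250 bases before the start of the gene in RefSeq (GRCm38.p6). The set of windows used here held 9 of the 10 genes and lacked *Sox10*. Searched on both strands were the STAT motif TTCNNNGAA, the AP-1 motif TGANTCA, the SOX motif ACAAAG, and the TATA box TATAAA. Capitals mark the matches.
*Gfap*, chr11:102897201-102897450, minus strand: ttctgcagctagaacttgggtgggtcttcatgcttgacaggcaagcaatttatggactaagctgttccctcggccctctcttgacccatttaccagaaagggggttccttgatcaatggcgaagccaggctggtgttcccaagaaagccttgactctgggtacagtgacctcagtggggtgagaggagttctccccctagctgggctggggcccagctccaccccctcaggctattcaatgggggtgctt
*Slc1a3*, chr15:8710808-8711057, minus strand: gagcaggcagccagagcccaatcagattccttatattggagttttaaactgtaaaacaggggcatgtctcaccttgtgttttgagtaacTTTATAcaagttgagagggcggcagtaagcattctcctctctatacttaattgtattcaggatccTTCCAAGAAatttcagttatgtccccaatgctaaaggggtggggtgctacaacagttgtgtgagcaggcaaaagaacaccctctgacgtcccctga
The *Gfap* window, which lies inside the longer span that GENCODE M21 gives the gene, held none of the 4 motifs. The *Slc1a3* window held a STAT match, found on both strands since the motif is its own reverse complement, from base -96 to -88 before the start, and a TATA box on the strand opposite to the gene from -161 to -156. Of 32536 mouse promoter windows of this length, 7.04% held the STAT motif, 6.73% the AP-1 motif, 16.5% the SOX motif, and 12.3% the TATA box. Among the other genes, the AP-1 motif was found for *Gja1* (-19 to -13), the TATA box for *Vim* (-32 to -27), and the SOX motif for *Sox2* (-206 to -201). *Apoe*, which has several starts, held the SOX motif before one of them (-54 to -49) and the TATA box before another (-100 to -95 and -96 to -91, on opposite strands and overlapping). No binding was measured, and a match is a description of the letters only.

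*Vim* (ENSMUSG00000026728.9, chromosome 2, 13573927 to 13582826, plus strand) encodes vimentin, the filament protein of mesenchymal cells and reactive glia. Its level was 515, 491, and 458 CPM with AAV5-*Gfp* and 591, 590, and 553 CPM with AAV5-*V1+V2* in replicates 1, 2, and 3. All AAV5-*V1+V2* libraries exceeded all control libraries, and replicate 1 did not stand out from replicate 2. The log2 fold change of 0.24 (SE 0.085, 95% interval 0.05 to 0.44) did not pass the threshold (adjusted p = 0.0909 by edgeR's test). It did pass in DESeq2 (adjusted p = 0.0201) and in limma-voom with sample weights (0.0286). Without AAV5-*V1+V2* replicate 1 the log2 fold change was 0.23 (adjusted p = 0.0847 by edgeR's test).

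Of the 12 other intermediate filament genes, 2 were higher and 0 were lower, with a median log2 fold change of -0.24. *Bfsp2*, known for the beaded filaments of the eye lens, went from 0.914 ± 0.174 to 3.40 ± 0.940 CPM (SD, n = 3, log2 fold change 1.89, adjusted p = 0.0144 by edgeR's test). *Lmnb1*, encoding lamin B1 of the nuclear lamina, went from 6.10 ± 0.679 to 11.8 ± 4.58 CPM (log2 fold change 0.95, adjusted p = 0.0483 by edgeR's test). Without AAV5-*V1+V2* replicate 1, the log2 fold changes of *Bfsp2* and *Lmnb1* were 1.65 and 0.59, and both kept the call. *Lmnb1* lost it without any 1 of the AAV5-*Gfp* libraries and without AAV5-*V1+V2* replicate 2. Without any 1 library, from 0 to 3 genes of the family with *Gfap* and *Vim* were higher, the 0 without AAV5-*Gfp* replicate 2 and without replicate 3. *Nes*, encoding nestin, had a log2 fold change of 0.19 (SE 0.12), and *Synm*, encoding synemin, of -0.38 (SE 0.17). The neuronal filaments *Nefl*, *Nefm*, *Nefh*, *Prph*, and *Ina* had log2 fold changes of -0.29, -0.31, -0.26, -0.22, and -0.36. None of these passed the threshold.

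In the handling of glutamate, the transporter was higher and the gene of the converting enzyme overlapped between the groups. *Slc1a3* (ENSMUSG00000005360.14, chromosome 15, 8634124 to 8710764, minus strand) encodes GLAST, which carries glutamate into glia. Its reads numbered 1246, 1126, and 1096 with AAV5-*Gfp* (replicates 1, 2, and 3, at 38.6, 32.5, and 35.1 CPM) and 1593, 1414, and 1530 with AAV5-*V1+V2* (48.4, 42.4, and 44.6 CPM). All AAV5-*V1+V2* libraries were above the control libraries, and the spread was alike in both groups. The mean went from 35.4 ± 3.06 to 45.1 ± 3.01 CPM (SD, n = 3), with a log2 fold change of 0.35 and an SE of 0.088 (95% interval 0.15 to 0.56, adjusted p = 0.0391 by edgeR's test). Without AAV5-*V1+V2* replicate 1 the log2 fold change was 0.30 and the adjusted p was 0.0480 by edgeR's test. The call was lost in each of the other 5 fits that left out 1 library, with adjusted p-values of 0.0617, 0.134, and 0.133 without AAV5-*Gfp* replicates 1, 2, and 3 and of 0.0648 and 0.0502 without AAV5-*V1+V2* replicates 2 and 3. Over all fits that left out 1 library, the log2 fold change ranged from 0.29 to 0.42.

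*Glul* (ENSMUSG00000026473.15, chromosome 1, 153899944 to 153909723, plus strand) encodes glutamine synthetase, which turns glutamate into glutamine and is the usual antibody marker of satellite glia. It was at 374, 287, and 344 CPM with AAV5-*Gfp* and at 283, 325, and 398 CPM with AAV5-*V1+V2* in replicates 1, 2, and 3. The groups overlapped over nearly their whole range. The log2 fold change was 0.00095 with an SE of 0.15 and a 95% interval from -0.35 to 0.35, an interval about as wide on either side as the change of *Slc1a3*. *Glul* shares 116 exon bases with *Teddm2* of the opposite strand, and the use of strand in the counting is not given in the sources used here.

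Among the 15 other genes of glutamate uptake and metabolism, 1 was higher and 1 was lower, and the median log2 fold change was -0.08. *Slc1a5*, a transporter of neutral amino acids including glutamine, went from 30.0 ± 0.979 to 42.3 ± 3.19 CPM (SD, n = 3, log2 fold change 0.50, SE 0.077, adjusted p = 0.0147 by edgeR's test). *Slc1a1*, the glutamate transporter of neurons, went from 4.99 ± 0.343 to 3.38 ± 0.451 CPM (log2 fold change -0.56, SE 0.15, adjusted p = 0.0463 by edgeR's test). Both lost the call without AAV5-*Gfp* replicate 1 (0.0542 and 0.0919), replicate 2 (0.0815 and 0.137), or replicate 3 (0.0875 and 0.147), and *Slc1a1* also lost it without each AAV5-*V1+V2* library. *Slc1a2*, the main glutamate transporter of brain astrocytes, had a log2 fold change of 0.07 (SE 0.087), *Slc1a4* of -0.21, and *Slc1a6* of -0.21.

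*Gja1* (ENSMUSG00000050953.10, chromosome 10, 56377330 to 56402513, plus strand) encodes connexin 43, the main gap junction protein between satellite glia. It was at 24.3, 24.3, and 28.1 CPM with AAV5-*Gfp* and at 21.7, 24.5, and 23.6 CPM with AAV5-*V1+V2* in replicates 1, 2, and 3, and the groups overlapped. The log2 fold change was -0.14 with an SE of 0.090 and a 95% interval from -0.35 to 0.07 (adjusted p = 0.315 by edgeR's test). Of the 10 other connexin genes that passed the filter, 0 were higher and 0 were lower in edgeR's test. At an unadjusted p under 0.05, 2 were higher and 0 were lower. *Gjc3*, the connexin with the highest CPM among them, had a log2 fold change of 0.05 (SE 0.076). *Gjb6*, which encodes connexin 30 of astrocytes, had one of 0.12 (SE 0.24). *Gjb5* had one of 0.96 (adjusted p = 0.0864 by edgeR's test) at means of 0.323 and 0.638 CPM.

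The lipid carriers of satellite glia overlapped between the groups. *Fabp7* (ENSMUSG00000019874.11, chromosome 10, 57784881 to 57788450, plus strand) encodes the brain fatty acid binding protein, which marks satellite glia in DRGs. It was at 89.6, 94.5, and 100.2 CPM with AAV5-*Gfp* and at 81.0, 101.8, and 86.0 CPM with AAV5-*V1+V2* in replicates 1, 2, and 3. Its log2 fold change was -0.08 (SE 0.097, 95% interval -0.31 to 0.15). *Apoe* (ENSMUSG00000002985.16, chromosome 7, 19696109 to 19699188, minus strand) was at 1749, 1508, and 1633 CPM with AAV5-*Gfp* and at 1562, 1713, and 1674 CPM with AAV5-*V1+V2*, in replicate order. Its log2 fold change was 0.02 (SE 0.11, 95% interval -0.23 to 0.27).

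Of the 5 other fatty acid binding protein genes tested, 0 were higher and 0 were lower in edgeR's test, and 1 was lower at an unadjusted p under 0.05. That gene was *Fabp3*, with a log2 fold change of -0.42 (SE 0.12, adjusted p = 0.0521 by edgeR's test, and under 0.05 in DESeq2). *Pmp2*, the fatty acid binding protein of myelin, had one of 0.10 and *Fabp5* one of 0.17. Among 25 other genes of lipoprotein and cholesterol handling, 1 was higher and 0 were lower, and the median log2 fold change was -0.02. The higher gene was *Npc2*, a lysosomal cholesterol carrier, which went from 50.4 ± 1.91 to 77.8 ± 17.0 CPM (SD, n = 3, log2 fold change 0.63, adjusted p = 0.0324 by edgeR's test). It lost the call in 4 of the 6 fits that left out 1 library, with an adjusted p of at most 0.127, and had a log2 fold change of 0.44 without AAV5-*V1+V2* replicate 1. DESeq2 called 5 higher and 2 lower genes in this list with *Apoe*. *Lss*, an enzyme of cholesterol synthesis, had a log2 fold change of -0.35 (SE 0.097, adjusted p = 0.0509 by edgeR's test).

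*S100b* (ENSMUSG00000033208.7, chromosome 10, 76253853 to 76261159, plus strand) encodes a calcium-binding protein of satellite glia and Schwann cells. Its reads numbered 10574, 10658, and 10375 with AAV5-*Gfp* (replicates 1, 2, and 3, at 327, 307, and 332 CPM) and 6879, 8723, and 9387 with AAV5-*V1+V2* (209, 262, and 273 CPM). Every AAV5-*V1+V2* library was below every AAV5-*Gfp* library, and replicate 1 was the lowest. The mean went from 322 ± 13.2 to 248 ± 34.4 CPM (SD, n = 3), with a log2 fold change of -0.38 and an SE of 0.11 (95% interval -0.64 to -0.12, adjusted p = 0.0600 by edgeR's test). The gene therefore did not pass the threshold. Without AAV5-*V1+V2* replicate 1 the log2 fold change was -0.26 and the adjusted p was 0.0307, and without replicate 3 they were -0.44 and 0.0369 by the same test. The gene was not called without AAV5-*Gfp* replicates 1, 2, or 3 (adjusted p = 0.151, 0.134, and 0.175 by edgeR's test) or without AAV5-*V1+V2* replicate 2 (0.105). DESeq2 gave an adjusted p of 0.0126. Of the exon bases of *S100b*, 83.0% lie within *Dip2a* of the opposite strand, with no shared exon.

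Of the 12 other S100 family genes tested, 1 was higher and 0 were lower, with a median log2 fold change of 0.05. *S100a4*, known from fibroblasts and leukocytes, went from 19.5 ± 1.46 to 24.8 ± 1.6 CPM (SD, n = 3, log2 fold change 0.35, SE 0.089, adjusted p = 0.0397 by edgeR's test). Of the 6 fits that left out 1 library, it kept the call only in that without AAV5-*V1+V2* replicate 3. *S100a8* and *S100a9*, which encode calprotectin of neutrophils, had log2 fold changes of 0.84 and 0.84 (adjusted p = 0.0541 and 0.0598 by edgeR's test). With total counts as the only scaling, 3 genes of the family were higher. *S100a10*, *S100a13*, and *S100a1* had log2 fold changes of -0.25, -0.20, and -0.20, and none of them passed.

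*Sox10* (ENSMUSG00000033006.10, chromosome 15, 79154908 to 79165240, minus strand) encodes the transcription factor that maintains peripheral glia. It was at 38.9, 39.7, and 31.8 CPM with AAV5-*Gfp* and at 37.9, 35.4, and 35.1 CPM with AAV5-*V1+V2* in replicates 1, 2, and 3. The groups overlapped, and the lowest and the highest value were both in control libraries. The log2 fold change was -0.03 (SE 0.098, 95% interval -0.26 to 0.20).

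*Sox2* (ENSMUSG00000074637.7, chromosome 3, 34650405 to 34652461, plus strand) encodes a factor of glial progenitors and satellite glia, and had 0 counts in all 6 libraries. A count of 0 allows up to 3 counts, or 0.0865 to 0.0961 CPM, by counting error only. *Sox2* lies wholly inside the span of *Sox2ot*, a noncoding gene of the same strand from 34104270 to 34682619, without a shared exon base. Of 243 protein-coding genes placed in this way, 67 (27.6%) were at 0 in all libraries, against 2024 of 20754 (9.75%) that are not inside a gene of the same strand. Whether the counting left out reads of *Sox2* was not tested. *Sox2ot* itself, chosen after its values were seen, had 3333, 3811, and 4033 reads with AAV5-*Gfp* and 2322, 2611, and 2956 with AAV5-*V1+V2*, in replicate order. Its mean went from 114 ± 13.5 to 78.3 ± 7.79 CPM (SD, n = 3, log2 fold change -0.54, SE 0.11, adjusted p = 0.0234 by edgeR's test). The call was lost without AAV5-*Gfp* replicate 1 (0.0520), replicate 2 (0.0873), or replicate 3 (0.0908) and without AAV5-*V1+V2* replicate 2 (0.0621).

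Of 18 other transcription factor genes of glia, 1 was higher and 0 were lower, and the median log2 fold change was 0.16. *Id2*, an inhibitor of basic helix-loop-helix factors, went from 13.5 ± 0.692 to 18.8 ± 1.67 CPM (SD, n = 3, log2 fold change 0.48, SE 0.096, adjusted p = 0.0234 by edgeR's test). It lost the call without AAV5-*Gfp* replicates 1, 2, or 3 (0.0589, 0.0954, and 0.10) and without AAV5-*V1+V2* replicate 2 (0.0647). *Sox4*, *Sox8*, and *Sox9* had log2 fold changes of 0.37, 0.21, and 0.12, and *Sox5*, *Sox6*, and *Sox11* of -0.05, -0.25, and -0.23, none of which passed.

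Other genes of glial reactivity and other markers of satellite glia were counted in the same fit, where 10.1% of all genes tested were higher and 5.27% were lower. Of 27 reactivity genes tested beside *Gfap* and *Vim*, 10 were higher and 1 was lower, and the median log2 fold change was 0.57. *Psmb8*, a subunit of the immunoproteasome, went from 9.0 ± 1.67 to 40.5 ± 15 CPM (SD, n = 3, log2 fold change 2.17, adjusted p = 0.0140 by edgeR's test). *C4b*, a complement component, had a log2 fold change of 0.98 (adjusted p = 0.0147), *Srgn*, the proteoglycan serglycin of leukocyte granules, of 1.27 (0.0227), and *Serping1*, the inhibitor of complement C1, of 0.57 (0.0265), all by edgeR's test. Without AAV5-*V1+V2* replicate 1 the log2 fold changes of these 4 genes were 1.86, 0.84, 0.92, and 0.48. The lower gene, *Serpina3n*, was named after its value was seen and is a protease inhibitor used as a marker of reactive astrocytes. It went from 98.9 ± 3.35 to 80.7 ± 5.74 CPM (SD, n = 3, log2 fold change -0.29, adjusted p = 0.0380 by edgeR's test). With *Gfap* and *Vim* in the list, 11 genes were higher with all libraries. That number was 2, 0, and 0 without AAV5-*Gfp* replicates 1, 2, and 3 and 9, 3, and 14 without AAV5-*V1+V2* replicates 1, 2, and 3, and *Serpina3n* was not called without any 1 of the AAV5-*Gfp* libraries. Several of these genes, such as *Psmb8* and *Srgn*, are also expressed by leukocytes.

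Of 24 other genes known from satellite glia, 0 were higher and 1 was lower, where 10.1% and 5.27% of all genes tested were. The median log2 fold change of the 24 genes was -0.24. At an unadjusted p under 0.05, 0 were higher and 10 were lower, where 19.2% and 15.5% of all genes tested were. *Cadm2*, a cell adhesion molecule that neurons express as well, was at 255, 290, and 294 CPM with AAV5-*Gfp* and at 157, 185, and 202 CPM with AAV5-*V1+V2* in replicates 1, 2, and 3. Its log2 fold change was -0.62 with an SE of 0.11 (adjusted p = 0.0182 by edgeR's test), and the call was lost without AAV5-*Gfp* replicates 1, 2, or 3 (0.0513, 0.0864, and 0.0902). *Atp1b2*, a subunit of the sodium pump, *Slc6a11*, a GABA transporter, and *Ptprz1*, a receptor phosphatase, had log2 fold changes of -0.25, -0.50, and -0.40 (adjusted p = 0.0537, 0.0670, and 0.0826 by edgeR's test). DESeq2 called 4 of the 24 lower, limma-voom with sample weights 8, and fits that left out 1 library between 0 and 6, with 0 without any 1 of the AAV5-*Gfp* libraries and 6 without AAV5-*V1+V2* replicate 3. The potassium channel gene *Kcnj10*, chosen after its values were seen, had a log2 fold change of -0.29 (SE 0.11, adjusted p = 0.110 by edgeR's test). The summed CPM of the 24 genes ranged from 3560 to 3584 with AAV5-*Gfp* and from 2765 to 3357 with AAV5-*V1+V2*, so that the groups did not overlap. Gene by gene, 0 of the 24 lay above and 10 below without overlap, where 23.4% and 22% of all genes tested did.

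**Figure D3:**
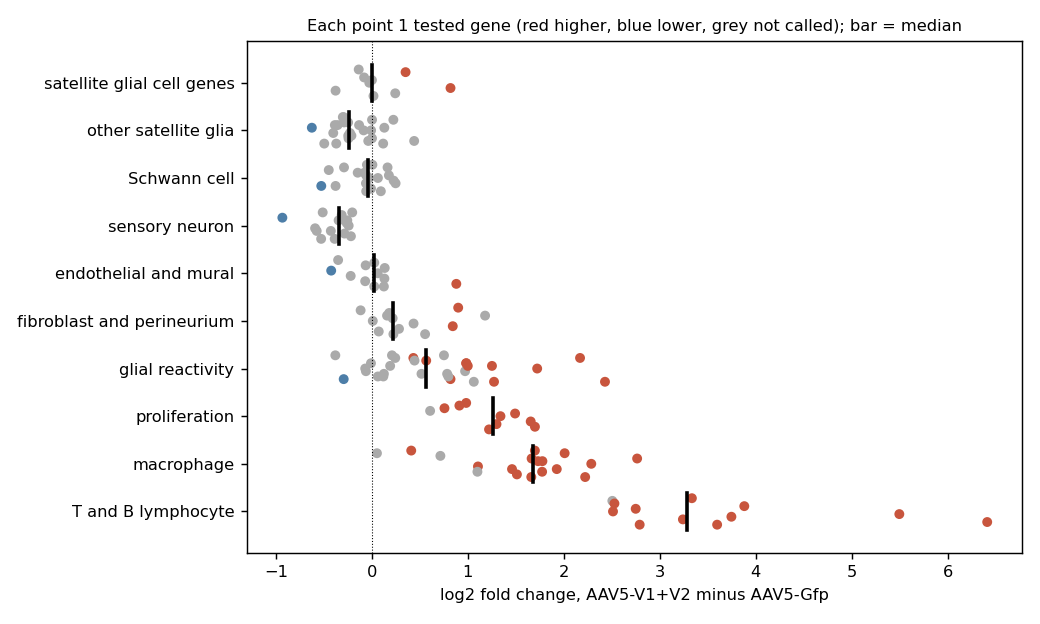
Log2 fold change (x axis) of each tested gene in 10 gene lists, with a bar at the median of the list. Red points were higher and blue points lower at an adjusted p under 0.05. The glial reactivity list here includes *Gfap* and *Vim*, and the Schwann cell list includes *Sox10* and *S100b*. Satellite glial cell genes lie around 0, other satellite glia genes mostly below it, and macrophage, lymphocyte, and proliferation genes above it.

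Markers of several other cells in the ganglion differed between the groups, while the Schwann cell sum and the endothelial and mural sum overlapped. The part of these cells in the results above was not tested. By the same rule, 10.1% of all genes tested were higher and 5.27% were lower. Macrophage genes were higher for 15 of 18, with a median log2 fold change of 1.68, and their summed level ranged from 217 to 301 CPM with AAV5-*Gfp* and from 614 to 1638 CPM with AAV5-*V1+V2*. Without AAV5-*Gfp* replicates 1, 2, and 3, 5, 0, and 0 of them were higher. Leaving out AAV5-*V1+V2* replicate 1 kept the count at 15. The complement genes *C1qa*, *C1qb*, and *C1qc* of macrophages had log2 fold changes of 1.93, 1.70, and 1.78. None of the 18 was at 0 in any group. Lymphocyte genes were higher for 11 of 12 (median 3.29, 20.7 to 39.2 CPM with AAV5-*Gfp* and 290 to 476 CPM with AAV5-*V1+V2*), with 1 higher without AAV5-*Gfp* replicate 2, 1 without replicate 3, and 11 without AAV5-*V1+V2* replicate 1. Proliferation genes were higher for 9 of 10 (median 1.26), for 0 without any 1 of the AAV5-*Gfp* libraries, and for 9 without AAV5-*V1+V2* replicate 1.

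Fibroblast and perineurium genes, which share the expression of *Vim*, were higher for 2 of 13 (median 0.22), *Col3a1* with a log2 fold change of 0.90 and *Col1a2* with 0.84, and 0 were lower. Over all genes tested, 10.1% were higher and 5.27% were lower. Both collagen genes lost the call without any 1 of the AAV5-*Gfp* libraries, *Col1a2* also without AAV5-*V1+V2* replicate 2, and without AAV5-*V1+V2* replicate 1 their log2 fold changes were 0.79 and 0.56. The summed level of the 13 genes ranged from 1558 to 2017 CPM with AAV5-*Gfp* and from 2389 to 3323 CPM with AAV5-*V1+V2*. Endothelial and mural genes were higher for 1 of 12 (*Pecam1*, log2 fold change 0.88, and 0.62 without AAV5-*V1+V2* replicate 1) and lower for 1 (*Flt1*, -0.42). Both lost the call without any 1 of the AAV5-*Gfp* libraries, and *Flt1* also without AAV5-*V1+V2* replicate 2.

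Schwann cell genes other than *Sox10* and *S100b* were higher for 0 of 18 and lower for 1, *L1cam*, an adhesion molecule of neurons and nonmyelinating Schwann cells (log2 fold change -0.53, SE 0.11, adjusted p = 0.0234 by edgeR's test). The call of *L1cam* was lost without any 1 of the AAV5-*Gfp* libraries. Of all genes tested, 5.27% were lower. The median log2 fold change of the 18 genes was -0.04, and their summed level overlapped between the groups (5000 to 5877 CPM and 5064 to 5331 CPM). The myelin genes *Mbp* and *Pmp22* had log2 fold changes of -0.04 and 0.01.

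Sensory neuron genes were higher for 0 of 15 and lower for 1, where 10.1% and 5.27% of all genes tested were. Their median log2 fold change was -0.35, and all 15 values were below 0. The lower gene was *Rbfox3*, which encodes the neuronal nuclear antigen (log2 fold change -0.93, SE 0.19, adjusted p = 0.0256 by edgeR's test). It lost the call without any 1 of the AAV5-*Gfp* libraries and without AAV5-*V1+V2* replicate 2. DESeq2 called 7 of the 15 lower, and 6 were lower without AAV5-*V1+V2* replicate 1 and 6 without replicate 3. The summed level of the 15 genes ranged from 10913 to 11781 CPM with AAV5-*Gfp* and from 7033 to 10202 CPM with AAV5-*V1+V2*. Genes of spinal cord glia other than *Gfap* and *Sox10* were higher for 0 of 6 and lower for 0 of 6 in edgeR's test, and 1 was higher and 1 lower at an unadjusted p under 0.05. *Cnp*, shared by Schwann cells and oligodendrocytes, had a log2 fold change of 0.22, and *Aqp4*, the water channel of astrocytes, of -0.48.

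Library by library, AAV5-*V1+V2* replicate 1 was the most distant from the controls in most of the genes and sums compared. Among them were *Gfap*, *Slc1a3*, *S100b*, and the other satellite glia, macrophage, fibroblast, lymphocyte, proliferation, and sensory neuron sums, but not the Schwann cell sum. Relative to the mean of the AAV5-*Gfp* libraries, *Gfap* was at 236.7%, 143.3%, and 149.8% in AAV5-*V1+V2* replicates 1, 2, and 3, and the macrophage sum was at 603.3%, 326.7%, and 226.1%. *S100b* was at 64.8%, 81.2%, and 84.8%, and the sensory neuron sum at 61.6%, 84.9%, and 89.3%. *Slc1a3* was at 136.7%, 120.0%, and 126.0%, and *Vim* at 121.0%, 120.8%, and 113.4%. Between replicates 2 and 3 the order of *Gfap*, on 207 and 223 reads, was opposite to that of the macrophage sum. It was the same as that of the proliferation sum (187.4% and 193.4%). These orders were not tested. The Schwann cell sum was at 100.4%, 95.4%, and 100.3%, against 110.6%, 94.1%, and 95.2% in AAV5-*Gfp* replicates 1, 2, and 3. With 3 libraries a group, no correlation was computed.

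**Figure D4:**
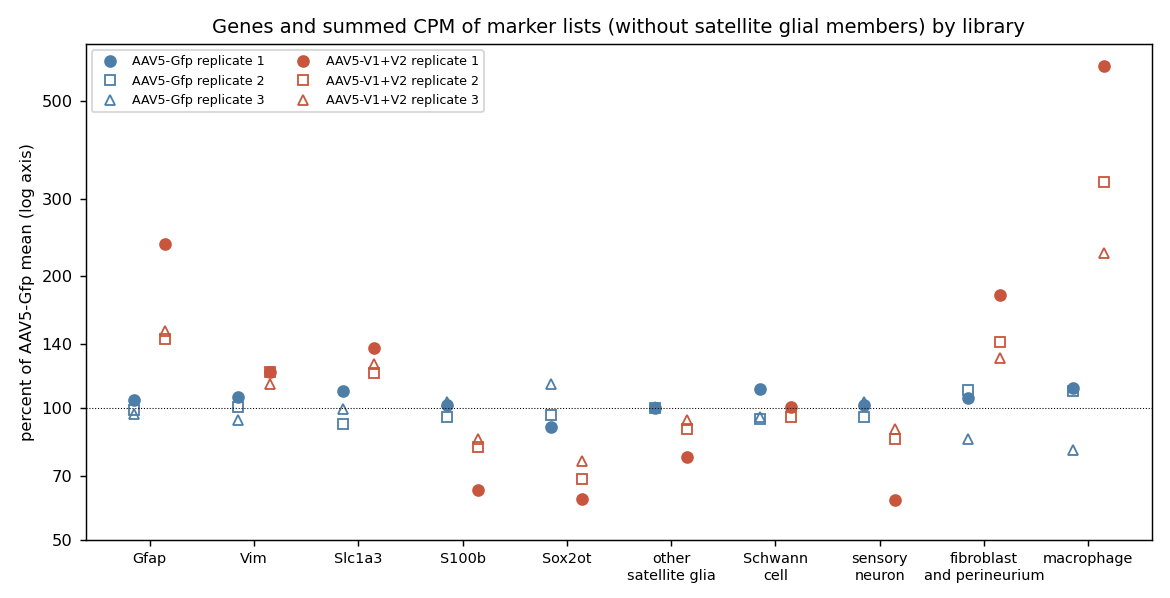
Level of 5 genes and the summed CPM of 5 marker lists in each library, as a percentage of the mean of the AAV5-*Gfp* libraries (log axis), with the list sums taken without the satellite glial genes. AAV5-*V1+V2* replicate 1 (filled red) is the highest in *Gfap*, *Slc1a3*, and the macrophage and fibroblast sums. It is the lowest in *S100b*, *Sox2ot*, and the other satellite glia and sensory neuron sums. The Schwann cell sum lies between 94.1% and 110.6% over all libraries, with both ends in AAV5-*Gfp* libraries.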

How the data were processed

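RNA sequencing libraries were made from total RNA of microinjected DRGs with a stranded kit. The authors deposited raw counts of reads per gene, as whole numbers, for 3 AAV5-*Gfp* and 3 AAV5-*V1+V2* libraries. The submitters' processing notes name GRCm38 (mm10). The aligner, the counter, and the use of strand are not given in the sources used here. The fit used edgeR 4.0.16 in R 4.3.3 (filterByExpr with the group, TMM, glmQLFit, glmQLFTest, no covariate), with Benjamini-Hochberg adjustment over 18593 of 48440 genes and a threshold of 0.05. The test was checked on counts simulated with far fewer changed genes than were called here. The simulated libraries held no outlying one, so the check does not bear on the calls given above. Standard errors were the absolute coefficient over the square root of F, and 95% intervals used the t distribution of the fit. CPM used TMM-scaled library sizes. Coordinates and exon lengths came from GENCODE M21.

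Alternatives covered normalization, the filter, DESeq2 1.42.0, limma-voom (limma 3.58.1), a replicate block, thresholds, and leaving out each library. Total counts were 32025612 to 34764282, and intervals for counts of 0 cover counting error only. Beside the 10 members, the genes named are, per list, the 4 or fewer of smallest adjusted p, and the measured paralogs of members. A gene outside this rule is marked as picked with its values in view, except markers given as a check of a label and the myelin genes *Mbp* and *Pmp22*. The members and lists were chosen with earlier results of these data known. No set was tested.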

Additional observations from a re-analysis of the deposited data

How the results depend on the processing

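Of 19 alternatives, *Gfap*, *Slc1a3*, *Vim*, and *S100b* kept their sign in all 19. The alternatives that changed only the threshold kept the values of the analysis as reported, so their sign could not differ. The log2 fold change ranged from 0.56 to 0.96 for *Gfap*, from 0.29 to 0.42 for *Slc1a3*, from 0.20 to 0.30 for *Vim*, and from -0.44 to -0.26 for *S100b*. The call of *Gfap* was lost in 6 and that of *Slc1a3* in 6, while *S100b* gained one in 7 and *Vim* in 4. Each number of losses includes the required 2-fold change. Each number of gains includes the looser thresholds, an adjusted p under 0.1 and an unadjusted p under 0.05. *Glul*, *Fabp7*, *Gja1*, *Apoe*, and *Sox10* were called in none, and signs of small values turned for all of them but *Gja1*. The number of members higher was 2 in the analysis as reported, 3 in DESeq2, in limma-voom with sample weights, at an adjusted p under 0.1, and at an unadjusted p under 0.05, 1 in limma-voom, 0 with a 2-fold change required, and 0 to 2 across the fits that each left out 1 replicate. The number lower was 0 as reported, 1 in DESeq2, 1 in limma-voom with sample weights, 1 with the replicate block, 1 at an adjusted p under 0.1, 1 at an unadjusted p under 0.05, and 0 to 1 across the fits that left out 1 replicate.

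Over all genes, 1872 were higher and 980 lower. These numbers were 2898 and 2030 at an adjusted p under 0.1, 1052 and 47 with a 2-fold change, and 3577 and 2878 at an unadjusted p under 0.05. They ranged from 12 to 2474 and from 0 to 1446 in the fits that left out 1 replicate (12 and 0 without AAV5-*Gfp* replicate 2, 15 and 0 without replicate 3, where the unadjusted p was under 0.05 for 2029 and 1815 genes with a fall). DESeq2 called 1484 genes lower, and limma-voom with sample weights 1995. The cause of these shifts was not tested, beyond what a threshold or a smaller number of libraries does by construction. With total counts only, 74.6% of called genes were higher, against 65.6% with TMM.

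Same-numbered libraries of the groups deviated together with correlations of 0.036, 0.066, and 0.107 over 18593 genes. AAV5-*V1+V2* replicates 2 and 3 correlated best with the same-numbered AAV5-*Gfp* library, and replicate 1 with AAV5-*Gfp* replicate 2 (0.043). The labels do not say that a number marks a shared animal or day, and the numbers were not taken to pair the libraries. The replicate block gave 2118 higher and 1341 lower genes, and 2 higher and 1 lower member (*S100b*, adjusted p = 0.0488 by edgeR's test). Of 98 other named genes, 0 changed sign in an alternative while called in it or in the analysis as reported. Changes of sign of a gene called in neither were not counted. At this depth *Gfap* rests on 131 to 338 counts a library, the fewest of the members tested, and the wide interval of *Glul* comes from the spread between libraries.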
